A study of Mus musculus with 9 samples.

Results

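Messenger RNA was compared for 10 genes that encode C-type lectin receptors and receptors for the Fc part of IgG, in RAW264.7 cells, a mouse macrophage line. The genes were taken by name from the deposited table of 54532 genes, and each of the 10 had 1 row. They were the lectin genes Clec4e, Clec4d, Clec4n, Clec5a and Clec7a, the Fc gamma receptor genes Fcgr1, Fcgr2b, Fcgr3 and Fcgr4, and Fcer1g, which encodes the signaling chain that several of these receptors share. There were 3 groups of 3 libraries each. The control cells were untreated. The LPS cells received LPS, a glycolipid shed from the outer wall of Gram-negative bacteria, at 1 μg/ml for 6 h. The LPS + G-CDs cells received the same LPS together with G-CDs at 400 μg/ml for 6 h, G-CDs being carbon dots made by heating Glycyrrhiza, the licorice plant, in water. All groups carried the WT genotype by their labels, and all were 1 cell line grown in culture, although the labels give ascites as the tissue. The titles of the last group name G-CDs while its treatment entry gives LPS alone. The labels do not say that the 3 libraries of a group came from separate experiments. In the study's text, a note on independent experiments closes captions of figures with blots, among them the figure that also shows the RNA-seq. It does not name the libraries, so the p-values measure the spread between these libraries, which may be technical.

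C-type lectin receptors on macrophages bind sugars and glycolipids of fungi and bacteria and debris of dying cells, while Fc gamma receptors bind IgG on coated particles. Most of these receptors have no signaling tail of their own and are held together with a small adaptor chain, Fcer1g or Tyrobp, whose ITAM is phosphorylated by Src family kinases and then recruits the kinase Syk. From Syk the signal passes through Card9, Bcl10 and Malt1 to NF-κB, and through Plcg2 and Vav proteins to phagocytosis and the oxidative burst. Fcgr2b is the exception among the Fc gamma receptors, because it carries an inhibitory motif, the ITIM, that recruits the lipid phosphatase Inpp5d and opposes the activating receptors bound to the same immune complex.

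The libraries held between 14752400 and 17312255 reads on genes, and levels are given as FPKM, a read count divided by gene length and library size. Of the 9 macrophage markers checked, 8 passed the filter for testing, among them Fcgr1 itself, and Mertk was at 0 reads in every library. None of the markers of T cells, B cells, NK cells, neutrophils, mast cells, dendritic cells, fibroblasts or epithelial cells passed it. The summed level of each of those lists stayed at or below 2.33 FPKM, the maximum being that of neutrophil genes in an LPS + G-CDs library, with Ly6g, Mpo and Elane at 0. Libraries of the LPS group resembled each other closely (r between 0.987 and 0.988), and the other groups were less even (r between 0.94 and 0.969 in control, between 0.935 and 0.975 in LPS + G-CDs). Part of that unevenness followed gene length. In the shortest of 5 length classes of the tested genes, from 11 to 1569 bases, the median deviation from the group mean was 0.30 on the log2 scale in LPS + G-CDs library 3, -0.26 in library 1 and 0.17 in control library 3.

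The genes lay in 2 clusters and 3 places of their own. On chromosome 6, Clec4n (GRCm38 chr6:123229843-123247021), Clec4d (chr6:123262111-123275265) and Clec4e (chr6:123281789-123289870) followed each other within 60028 bases, Clec4e on the minus strand and the others on the plus strand. On chromosome 1, Fcgr2b (chr1:170958617-170976547), Fcgr4 (chr1:171018920-171029761), Fcgr3 (chr1:171051174-171064935) and Fcer1g (chr1:171229572-171234365) lay within 275749 bases. Clec5a (chr6:40574894-40585821), Clec7a (chr6:129461591-129472779) and Fcgr1 (chr3:96282909-96293969) stood apart. Sequence sharing was a concern for 1 pair: taking runs of 50 bases along each longest transcript, 12.8% in Fcgr3 and 8.60% in Fcgr2b also occurred in other genes, and 166 such runs were common to both. How reads matching both genes were counted is not given in the sources used here, so their values are uncertain to that extent. The share was 0.812% in Clec4n and 0 in the other 7 genes. An antisense gene, Gm38204, lay over Fcgr2b and held at most 4 reads in a library, and whether counting used strand is likewise not given.

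The sequence just before the start of 5 genes is shown here. These are genes described below whose RefSeq start lay within 16 bases of the deposited one and whose window held a match to a motif searched. The starts of Fcer1g and Clec7a also lay that close, but their windows held none of these motifs and are not shown. Each window is the 250 bases before the start, on the strand of the gene, from RefSeq on GRCm38.p6. The windows were chr6:123289872-123290121 (minus strand) for Clec4e, chr6:123261857-123262106 (plus) for Clec4d, chr6:40585806-40586055 (minus) for Clec5a, chr3:96293970-96294219 (minus) for Fcgr1 and chr1:171018676-171018925 (plus) for Fcgr4. Capitals mark matches, on either strand, to a C/EBP motif (TTGCNNAA, in Clec4e), to a PU.1 motif (GAGGAAG, read as its reverse complement in the other 4), to the STAT motif called GAS (TTCNNNGAA, in Fcgr1) and to the kappa B consensus (the match nearer the 5′ end in Fcgr4). For PU.1 only GAGGAAG was searched, and the shorter GAGGAA in the Clec4e window is left in lower case.
Clec4e: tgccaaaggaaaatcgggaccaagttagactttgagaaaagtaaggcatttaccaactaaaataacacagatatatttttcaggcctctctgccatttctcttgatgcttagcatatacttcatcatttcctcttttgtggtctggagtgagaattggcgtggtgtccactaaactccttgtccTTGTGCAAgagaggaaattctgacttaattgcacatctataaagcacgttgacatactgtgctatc
Clec4d: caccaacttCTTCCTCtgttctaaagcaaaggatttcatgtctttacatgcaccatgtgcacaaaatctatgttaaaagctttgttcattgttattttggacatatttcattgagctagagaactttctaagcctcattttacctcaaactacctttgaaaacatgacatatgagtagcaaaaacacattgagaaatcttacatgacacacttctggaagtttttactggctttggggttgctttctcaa
Clec5a: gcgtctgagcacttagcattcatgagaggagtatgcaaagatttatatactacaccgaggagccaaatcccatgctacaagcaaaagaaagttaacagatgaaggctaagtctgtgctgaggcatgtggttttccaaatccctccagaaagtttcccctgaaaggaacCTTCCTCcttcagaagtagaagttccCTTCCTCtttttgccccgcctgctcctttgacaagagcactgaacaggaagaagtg
Fcgr1: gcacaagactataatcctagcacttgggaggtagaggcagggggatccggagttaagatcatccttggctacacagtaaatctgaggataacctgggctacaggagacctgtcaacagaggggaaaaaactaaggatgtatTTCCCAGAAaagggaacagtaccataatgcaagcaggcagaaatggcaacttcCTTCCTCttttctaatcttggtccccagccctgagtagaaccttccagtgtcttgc
Fcgr4: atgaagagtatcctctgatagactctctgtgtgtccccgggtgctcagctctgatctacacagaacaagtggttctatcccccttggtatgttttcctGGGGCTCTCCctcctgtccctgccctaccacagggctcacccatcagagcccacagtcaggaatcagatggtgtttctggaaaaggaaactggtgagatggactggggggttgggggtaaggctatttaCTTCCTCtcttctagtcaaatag
The C/EBP match of Clec4e began 66 bases before the start, the GAS match of Fcgr1 109 bases before it, and the kappa B match of Fcgr4 152 bases before it. No match overlapped another. Among the 9 members with a RefSeq promoter (Clec4n had none in the table used), 5 held the PU.1 motif GAGGAAG, 2 the C/EBP motif, 2 the kappa B consensus, 1 the GAS motif and 0 the AP-1 motif TGANTCA. The window of Fcgr3, which held 3 of these motifs, began 5532 bases from the deposited start, and among the 7 members within 16 bases the counts were 4 for PU.1, 1 for C/EBP, 1 for kappa B and 1 for GAS. Over all 32851 promoters of the same length, the shares were 10.6% for the PU.1 motif, 9.56% for C/EBP, 7.25% for kappa B, 7.02% for GAS and 6.75% for AP-1. A match is only a run of letters and does not show that a factor binds there.

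Untreated cells used a few of these genes heavily and barely read the others. Mean control levels were 66.3 FPKM for Fcer1g, 39.3 for Fcgr1, 38.6 for Clec5a, 33.0 for Clec4d and 8.87 for Clec4e. Fcgr1, Clec5a and Clec4d overlapped between libraries and had no clear order. Every other member averaged under 1 FPKM in control, namely Fcgr2b at 0.917, Fcgr3 at 0.760, Clec7a at 0.581, Fcgr4 at 0.253 and Clec4n at 0.223, and neighbours in that order overlapped. After LPS the order was Fcer1g, Clec4e, Clec4d, Fcgr1, Clec5a, Fcgr2b, Fcgr4, Clec7a, Clec4n and Fcgr3, and only Clec7a and Clec4n overlapped as neighbours. Clec4e stood at rank 5 among the members in each control library, at a percentile of tested genes between 38.9 and 62.5, and at rank 2 in each LPS library, at a percentile between 95.1 and 95.3. With G-CDs, Fcer1g, Clec4d and Clec4e took the top 3 places in every library. Fcer1g was above Clec4e in each, and Clec4d overlapped both, while the low genes Clec4n, Fcgr3 and Clec7a overlapped from neighbour to neighbour.

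**Figure D1:**
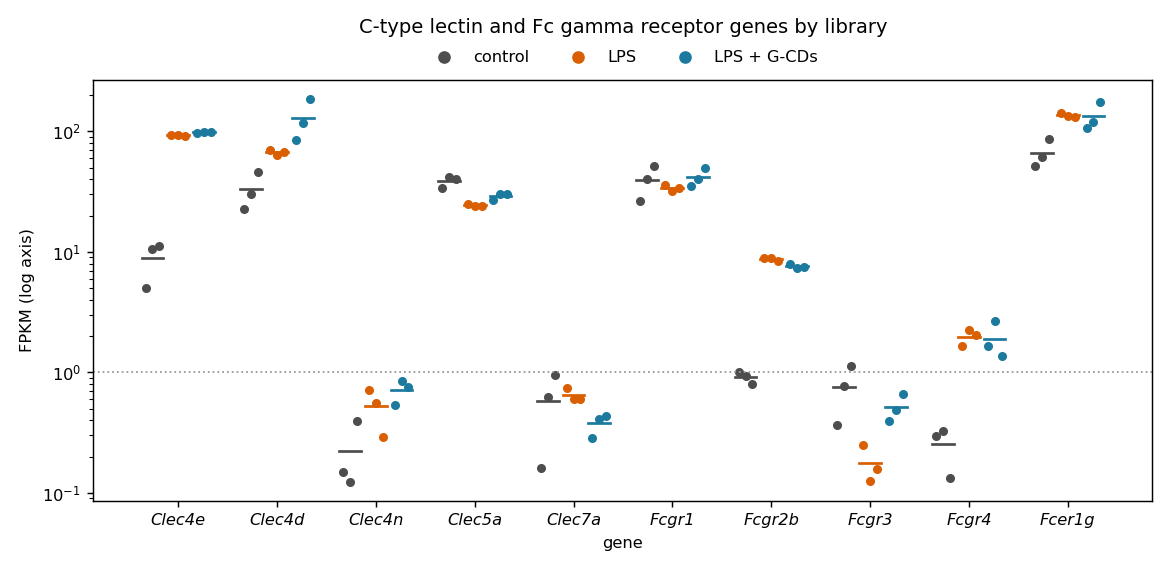
FPKM of the 10 genes in each library on a log axis, with a point for each library, a bar at the group mean and a dotted line at 1 FPKM, the level used by the filter. Clec4e, Fcgr2b and Fcgr4 stood clear of their control libraries in both LPS groups, Clec5a lay below its control libraries, and Fcgr1 overlapped in every group.

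The comparison of LPS with control asked how this receptor set responds to the stimulus. Of the 10 members, 7 passed the filter of at least 1 FPKM in at least 3 libraries, and in limma's test 5 of them were higher with LPS (Clec4e, Fcgr2b, Fcgr4, Fcer1g and Clec4d), 1 was lower (Clec5a) and 1 was not called (Fcgr1). Over all 11585 tested genes, 15.8% were called higher and 15.6% lower. In 6 of the 7 the libraries of both groups did not overlap, against 52.5% of tested genes. The median log2 fold change was 1.05 over the tested members and 0.02 over all tested genes. The filter itself admits a gene such as Fcgr4 only through the groups in which it is high, so these counts are descriptions. With TPM, which scales every library to 1 total, the members' calls were the same, although the calls over all genes went from 1827 higher and 1803 lower to 1003 higher and 3059 lower. In bulk RNA, fewer cells using a gene and less of its RNA in each cell cannot be told apart.

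Clec4e, which encodes Mincle, a receptor for mycobacterial cord factor, changed most. Its level was 4.98, 10.5 and 11.2 FPKM in the control libraries and 93.7, 93.4 and 91.0 in the LPS libraries. Every LPS library was far above every control library, and the spread lay in control, where library 1 was low. The log2 fold change was 3.32 ± 0.24 (SE, n = 3 against 3, limma, adjusted p = 1.2e-05), and the ratio of the means was 10.5. The call held under all 20 alternatives, with values between 2.99 and 3.50.

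Clec4d, its neighbour on chromosome 6, encodes MCL, which binds the same glycolipid and can pair with Mincle. It stood at 22.7, 30.3 and 45.9 FPKM in control and 69.9, 63.4 and 66.8 with LPS. The groups did not overlap, but control library 3 was near the LPS libraries. The log2 fold change was 1.05 ± 0.31 (limma, adjusted p = 0.030). This call was lost without control library 1 (adjusted p = 0.092), control library 2 (0.073), LPS library 1 (0.089), LPS library 2 (0.075) or LPS library 3 (0.080), and when no filter was used (0.071). After the length trend was removed the value was 1.18 (adjusted p = 0.0020). Because Clec4e rose more, the ratio of Clec4d to Clec4e went from between 2.90 and 4.56 in control to between 0.678 and 0.745 with LPS.

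Clec5a, which encodes a receptor for viral glycans that signals through Tyrobp and not through Fcer1g, went the other way. Its libraries read 33.7, 41.8 and 40.5 FPKM in control and 25.0, 24.1 and 24.02 with LPS. All LPS libraries lay below all control libraries. In limma the log2 fold change came to -0.64 ± 0.12 (adjusted p = 0.0034), and the call held under all 20 alternatives. The makeup of lectin RNA differed accordingly. Clec5a made up 48.6% ± 6.98 (SD, n = 3) of the summed FPKM of the 5 lectins in control and 13.2% ± 0.0479 with LPS, while Clec4e went from 10.6% ± 2.31 to 50.2% ± 1.04. Clec4d stayed at 39.9% ± 5.67 and 36.0% ± 1.07.

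Clec4n and Clec7a were close to silent. Clec4n, the gene of the mannan receptor Dectin-2, had 4, 3 and 10 reads in control and 14, 11 and 6 with LPS, and its levels overlapped at 0.150, 0.124 and 0.395 against 0.713, 0.561 and 0.291 FPKM. Clec7a, the gene of the β-glucan receptor Dectin-1, had between 8 and 45 reads in a library and is listed in the deposited table as a polymorphic pseudogene. Its levels overlapped as well, at 0.162, 0.623 and 0.958 FPKM in control and 0.740, 0.604 and 0.600 with LPS. Neither passed the filter. Fitted without a filter, their adjusted p-values were 0.21 and 0.83 in limma's test. A change was not detectable at this depth in either gene.

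Among the Fc gamma receptors, the inhibitory gene rose and the main activating gene did not move beyond its spread. Fcgr2b was at 1.01, 0.933 and 0.805 FPKM in control (110, 92 and 83 reads) and at 8.95, 8.88 and 8.42 with LPS (716, 710 and 709 reads). The values were tight within each group and far apart between them. On the log2(FPKM + 1) scale the change was 2.35 ± 0.10 (limma, adjusted p = 4.5e-07, or 3.0e-06 when no filter was used), which understates the change of so low a gene, and the ratio of the means was 9.54. Fcgr2b reached 1 FPKM in 1 control library and passed the filter through the groups given LPS, where it is high. The rise of Fcgr2b was called under all 20 alternatives.

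Fcgr1, the gene of the high-affinity receptor CD64, read 26.2, 40.1 and 51.7 FPKM in control and 35.7, 31.9 and 34.1 with LPS. The LPS libraries fell inside the control range. The log2 fold change was -0.16 ± 0.23 (limma, adjusted p = 0.65) with a 95% interval from -0.69 to 0.37, and its sign turned without control library 3 (0.06). The interval leaves room for a fold between 0.622 and 1.29, so the test does not show that the level was the same.

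Fcgr4 and Fcgr3, the activating receptors of lower affinity, had few reads and opposite patterns. Fcgr4 had 7, 7 and 3 reads in control (0.297, 0.327 and 0.134 FPKM) and 29, 39 and 37 with LPS (1.67, 2.25 and 2.03 FPKM). No control library came near an LPS library. Fcgr4 passed the filter only through the 2 groups given LPS, where it is high. Its log2 fold change was 1.25 ± 0.18 (limma, adjusted p = 0.00094, or 0.0041 when no filter was used), and it was 2.60 with a pseudocount of 0.1 and 2.94 with voom on the recovered reads, so its size depends on how low values are handled. Fcgr3 had 12, 23 and 35 reads in control (0.369, 0.778 and 1.13 FPKM) and 6, 3 and 4 with LPS (0.250, 0.125 and 0.159 FPKM). The groups did not overlap, the control libraries being higher, but Fcgr3 failed the filter. Fitted without it, the log2 fold change was -0.56 ± 0.16 (limma, adjusted p = 0.055). The ratio of Fcgr4 to Fcgr3 went from between 0.118 and 0.806 in control to between 6.68 and 18.0 with LPS.

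Fcer1g, the shared chain, was at 51.9, 61.0 and 86.0 FPKM in control and 142, 133 and 131 with LPS. All LPS libraries were above all control libraries, with control library 3 the highest of its group. The log2 fold change was 1.05 ± 0.23 (limma, adjusted p = 0.0079), and the call held under all 20 alternatives. Tyrobp, the adaptor used by Clec5a, averaged 239 FPKM in control and 181 with LPS and was not called (adjusted p = 0.41), so the ratio of Fcer1g to Tyrobp went from between 0.263 and 0.3002 to between 0.715 and 0.774.

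**Figure D2:**
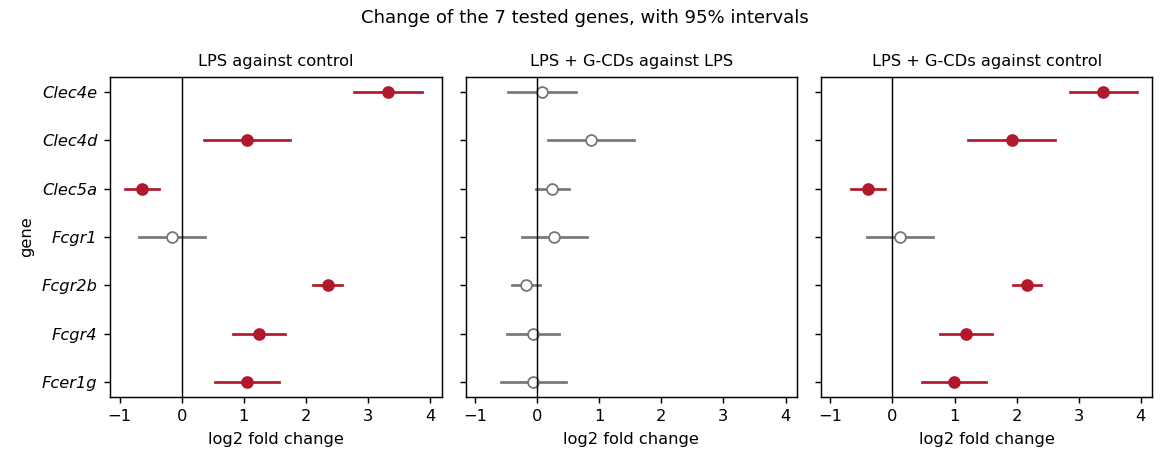
Log2 fold changes on the log2(FPKM + 1) scale of the 7 tested genes in each comparison, with 95% intervals from limma. Filled points have an adjusted p under 0.05, which holds for 6 genes in both comparisons with control and for 0 genes between LPS + G-CDs and LPS.

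The levels of activating and inhibitory Fc gamma receptor RNA were also set against each other within a library. The summed FPKM of Fcgr1, Fcgr3 and Fcgr4 was 26.6, 44.1 and 65.8 times that of Fcgr2b in the control libraries and 4.21, 3.85 and 4.31 times in the LPS libraries. The groups were far apart. The summed activating RNA itself was 40.3 ± 13.0 FPKM in control and 36.1 ± 1.72 with LPS (SD, n = 3). Fcgr1 supplied nearly all of it. Without Fcgr1, the sum of Fcgr3 and Fcgr4 was between 0.657 and 1.57 times Fcgr2b in control and between 0.215 and 0.267 times with LPS. The ratio of Fcer1g to the summed FPKM of the 6 members that signal through it was 0.947, 0.743 and 0.779 in control and 0.705, 0.696 and 0.674 with LPS, while the summed partners averaged 82.4 FPKM in control and 196 with LPS. No test was made on these ratios, which are built from the members' own levels.

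**Figure D3:**
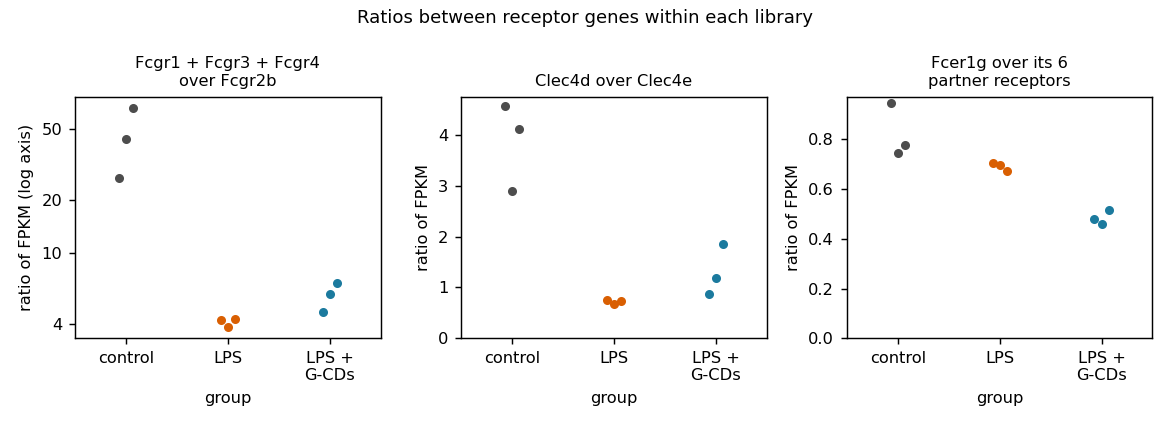
Ratios of FPKM within each library, with a point for each library (the left panel has a log axis). Activating over inhibitory Fc gamma receptor RNA fell from between 26.6 and 65.8 in control to between 3.85 and 4.31 with LPS, and Fcer1g over its partners was lowest with G-CDs, between 0.458 and 0.517.

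The comparison of LPS + G-CDs with LPS asked whether the carbon dots change the response. None of the 7 tested members was called by limma, on FPKM or with voom on the recovered reads. At an unadjusted p under 0.05 there was 1 member, Clec4d (higher), where 7.19% of tested genes were higher and 8.04% lower. Over all tested genes 0.25% were called higher and 0.242% lower, so few calls were made anywhere in this comparison. At the study's thresholds, a p under 0.01 and a change over 1.5-fold, 0 members were counted, against 144 genes higher and 144 lower. Libraries of both groups did not overlap in 4 of the 7 members, against 27.9% of tested genes. The median log2 fold change was 0.08 over the tested members and 0.02 over all tested genes. This comparison and that of LPS with control share the LPS libraries.

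Clec4d was the tested member with the largest difference on the log2(FPKM + 1) scale. It read 84.9, 117 and 184 FPKM with G-CDs, against 69.9, 63.4 and 66.8 with LPS alone. All 3 G-CDs libraries were higher, with library 3 well above the others. The difference was 0.87 ± 0.31 on the log2 scale (limma, adjusted p = 0.29), with a 95% interval from 0.17 to 1.57. It was 1.13 without LPS + G-CDs library 1 (adjusted p = 0.061) and 0.58 without library 3 (0.70), the lowest and highest adjusted p over all alternatives. With the length trend removed it was 0.62 (adjusted p = 0.22).

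The other tested members differed by less on the log2(FPKM + 1) scale. Clec4e read 96.6, 98.7 and 99.4 FPKM with G-CDs, each above every LPS library, yet the difference was only 0.08 on the log2 scale (95% interval -0.46 to 0.63, limma, adjusted p = 0.84) and took a minus sign with TPM and with quantile normalization. Its interval uses the spread of all 3 groups, and the SD of log2(FPKM + 1) was 0.57 in control, 0.023 with LPS and 0.022 with G-CDs. With the 6 libraries alone limma's adjusted p was 0.57. Clec5a read 27.0, 30.2 and 30.2 FPKM, again above every LPS library, with a log2 fold change of 0.25 (interval -0.02 to 0.52, adjusted p = 0.33). Fcgr2b, at 7.94, 7.33 and 7.54 FPKM, was below every LPS library, with a log2 fold change of -0.18 (interval -0.41 to 0.05, adjusted p = 0.35). The G-CDs mean lay on the control side of the LPS mean in Clec5a and Fcgr2b and on the far side in Clec4e, and none of these 3 differences passed the test.

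Fcgr1, Fcgr4 and Fcer1g overlapped between the groups. Fcgr1 was at 35.1, 40.2 and 49.8 FPKM with G-CDs, with a log2 fold change of 0.28 (interval -0.25 to 0.81, limma, adjusted p = 0.48). Fcgr4 was at 1.65, 2.68 and 1.36 FPKM, from 30, 56 and 24 reads, with a log2 fold change of -0.06 (interval -0.48 to 0.35, adjusted p = 0.85). Fcer1g was at 105, 119 and 174 FPKM, on both sides of the LPS libraries, with a log2 fold change of -0.06 (interval -0.58 to 0.46, adjusted p = 0.88). The intervals allow changes of up to 1.75-fold in Fcgr1, so a missed threshold does not show that G-CDs left these genes as they were. In Clec4d, Clec4e, Clec5a, Clec7a, Fcgr1, Fcgr3 and Fcer1g, LPS + G-CDs library 3 was the highest and library 1 the lowest of the group. Clec4n, Fcgr2b and Fcgr4 had other orders. The median of the shortest genes was also highest in library 3 and lowest in library 1. In the class of Clec4e, from 4575 to 6855 bases, the median deviation ran the other way (0.077 in library 1, -0.082 in library 3). The part of gene length in the members' levels was not tested beyond the fit with the length trend removed.

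The untested members also held few reads in this comparison. Fcgr3 had 10, 14 and 16 reads with G-CDs against 6, 3 and 4 with LPS (0.398, 0.485 and 0.656 FPKM against 0.250, 0.125 and 0.159), each higher, with an adjusted p of 0.49 in limma's fit without a filter. Clec7a had 11, 18 and 16 reads against 27, 22 and 23 (0.288, 0.411 and 0.432 FPKM), each lower, with an adjusted p of 0.60. Clec4n had 11, 20 and 15 reads (0.536, 0.848 and 0.752 FPKM) and overlapped with LPS, with an adjusted p of 0.60. At this depth none of these differences was detectable after adjustment.

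Ratios within a library were set side by side as well. Fcer1g over its 6 partners was 0.481, 0.458 and 0.517 with G-CDs, below all LPS libraries, while the summed FPKM of the partners was 272 ± 59.5 against 196 ± 5.38 (SD, n = 3). Of these partners, Clec4d averaged 129 against 66.7 FPKM. Clec4d over Clec4e was 0.879, 1.19 and 1.85, above all LPS libraries and below all control libraries. Activating over inhibitory Fc gamma receptor RNA was 4.67, 5.92 and 6.87, also above the LPS range and far below the control range. With Fcgr3 and Fcgr4 alone over Fcgr2b the groups overlapped, at 0.258 to 0.432 against 0.215 to 0.267. Fcer1g over Tyrobp was between 0.496 and 0.618, lower than with LPS alone. Within the lectin sum, Clec4d had 48.8% ± 9.05 and Clec4e 39.2% ± 7.33. These ratios were not tested.

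Compared with control, cells given LPS + G-CDs had the same 6 members called in the same directions as cells given LPS, and both comparisons share the control libraries. In limma's test 5 members were higher and 1 was lower, where 12.8% and 12.4% of tested genes were called. In 6 of the 7 the libraries did not overlap, against 34.3% of tested genes. Fcgr2b and Fcgr4 passed the filter through the groups given LPS, where they are high, so these counts are descriptions here too. The log2 fold changes were 3.40 for Clec4e (adjusted p = 1.3e-05), 1.92 for Clec4d (0.0018), 2.17 for Fcgr2b (7.4e-07), 1.19 for Fcgr4 (0.0015) and 0.99 for Fcer1g (0.013). When no filter was used, limma's adjusted p was 4.8e-06 for Fcgr2b and 0.0063 for Fcgr4. Clec5a was lower by -0.39 (adjusted p = 0.040), a call lost with the 6 libraries alone (0.15), without control library 2 (0.13) or 3 (0.090), without LPS library 1 (0.077), 2 (0.075) or 3 (0.078), and without LPS + G-CDs library 1 (0.081) or 2 (0.0999). Fcgr1 was at 0.12 (adjusted p = 0.75). Among the untested members, Clec4n was above every control library, from at most 20 reads. In limma's fit with no filter it was at 0.49 (adjusted p = 0.068). Fcgr3 and Clec7a overlapped with control, with adjusted p-values of 0.53 and 0.64 in that fit. With TPM, Clec5a was at -0.83 and Fcer1g at 0.56, both still called, and with the 6 libraries alone Fcer1g missed the threshold (adjusted p = 0.053).

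Neighbours of the members in the chromosomal clusters were read as well. In the chromosome 6 cluster, Clec4e and Clec4d rose with LPS, Clec4n stayed under 1 FPKM in all 9 libraries, and Clec4a2, an inhibitory lectin gene on the far side of Clec4n, averaged 0.558 FPKM in control, 0.0726 with LPS and 0.378 with G-CDs and was not tested. In the chromosome 1 cluster, Fcgr2b, Fcgr4 and Fcer1g rose. Between them lay Fcgr3, lower in every LPS library, and Sdhc, a subunit of mitochondrial complex II, which averaged 41.2 FPKM in control and 29.8 with LPS and was not called (adjusted p = 0.14). Beyond Fcer1g lay Adamts4, a protease of cartilage proteoglycan, which averaged 0.0546 FPKM in control and 1.28 with LPS (limma with no filter, adjusted p = 2.5e-04), and B4galt3, a galactosyltransferase gene, which averaged 3.49 and 5.79 (limma, adjusted p = 0.0035). Of 13 tested neighbours of the chromosome 1 cluster, these 2 were called higher and 11 were not called, against 15.8% called higher over all tested genes.

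**Figure D4:**
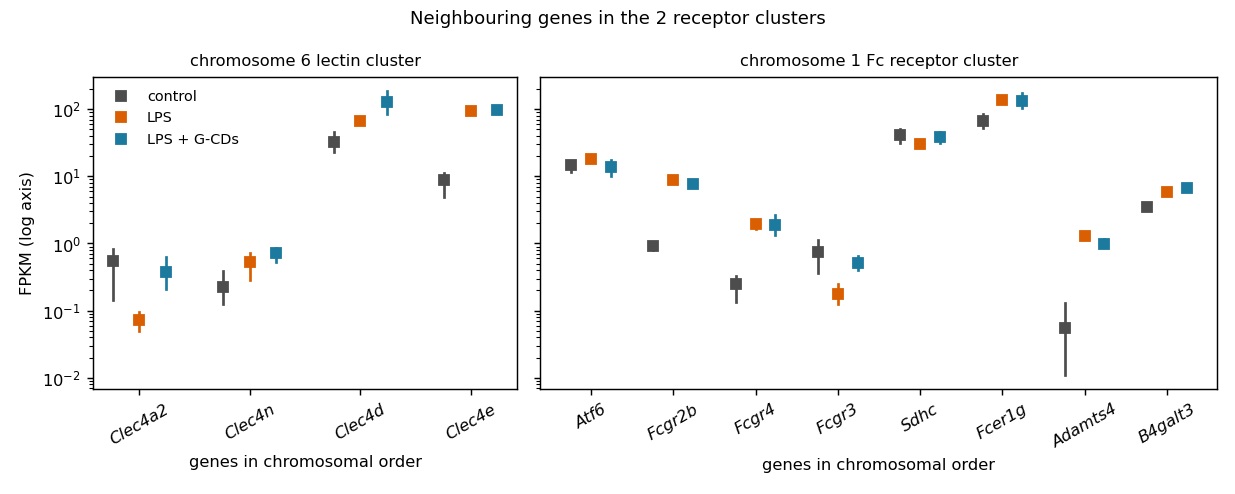
Mean FPKM on a log axis, with lines from the lowest to the highest library, for genes of the chromosome 6 and chromosome 1 clusters in chromosomal order. On chromosome 6, Clec4d and Clec4e rose with LPS beside the untested Clec4a2 and Clec4n, and on chromosome 1, Fcgr2b, Fcgr4, Fcer1g, Adamts4 and B4galt3 rose, Atf6 and Sdhc were not called and Fcgr3 was not tested.

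The signaling machinery below the receptors rose in part. Of 24 genes listed for proximal signaling, 23 were tested, and with LPS 9 were higher, 0 lower and 14 not called in limma's test, with a median log2 fold change of 0.34. Over all tested genes the shares were 15.8% higher and 15.6% lower and the median 0.02, and the counts of each list below are to be read against these. At an unadjusted p under 0.05, 10 were higher and 1 was lower, against 21.1% and 20.8% of all tested genes. Malt1, the protease of the Card9 complex, went from 3.64 ± 0.717 to 38.5 ± 1.62 FPKM (log2 fold change 3.10, limma, adjusted p = 1.9e-05). Lcp2, the scaffold SLP-76, went from 29.6 ± 4.37 to 180 ± 5.40 (2.57, adjusted p = 2.2e-06). Pik3ap1, an adaptor for phosphoinositide 3-kinase, went from 25.9 ± 11.8 to 120 ± 6.93 (2.29, adjusted p = 0.0087). Syk itself averaged 7.87 FPKM in control and 10.2 with LPS and was not called (adjusted p = 0.11), and Card9 averaged 38.3 and 28.2 (adjusted p = 0.14). With TPM 4 genes of this list were called lower, and with quantile normalization 3.

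With G-CDs, 1 gene of the proximal list was called against LPS, and it was lower, where 0.242% of all tested genes were. Fgr, a Src family kinase, read 31.9, 28.1 and 29.1 FPKM with LPS and 17.5, 16.6 and 14.1 with G-CDs. The groups were well apart, and both were above the control mean of 5.67. On the log2 scale the difference was -0.85 ± 0.12 (limma, adjusted p = 0.024), negative under all 20 alternatives but called in 12 of them. The call was lost with TPM (adjusted p = 0.11), with the 6 libraries alone (0.071) and without control library 2 (0.057), LPS library 1 (0.17), 2 (0.14) or 3 (0.12), or LPS + G-CDs library 2 (0.14) or 3 (0.058). The median of the list was -0.30, against 0.02 over all tested genes, and 22 of the 23 were not called. At an unadjusted p under 0.05, 10 of the 23 were lower and 1 was higher, against 8.04% and 7.19% of all tested genes. The number called lower was 3 with the length trend removed and 2 without LPS + G-CDs library 1.

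Inhibitory signaling was mixed. Of 17 genes listed, 16 were found and 13 tested, and with LPS 4 were higher, 3 lower and 6 not called (median log2 fold change 0.13). With the replicate number as a block 5 were lower, as they were with TPM, with quantile normalization, with the length trend removed and without LPS + G-CDs library 3. Lilrb4a, an inhibitory receptor with ITIMs, went from 4.72 ± 1.59 to 127 ± 9.68 FPKM (4.52, limma, adjusted p = 9.3e-06), while Sirpa, the inhibitory receptor for CD47, fell from 34.2 ± 1.73 to 11.01 ± 1.34 (-1.56, adjusted p = 1.5e-05). Inppl1, a lipid phosphatase related to Inpp5d, was higher (1.15, adjusted p = 0.0011), and so was Dok2, an adaptor that restrains Ras signaling (1.09, adjusted p = 8.7e-04). Inpp5d, the partner of Fcgr2b, averaged 28.4 FPKM in control and 19.8 with LPS and was not called (adjusted p = 0.066), but it was called lower with the replicate block (adjusted p = 0.033). With G-CDs 1 gene was called higher than with LPS, where 0.25% of all tested genes were. It was Cd300a, an inhibitory receptor for phospholipids of dying cells, at 6.83, 7.50 and 8.73 FPKM against 3.62, 3.53 and 4.41. All G-CDs libraries were above all LPS libraries and above all control libraries, which read 5.80, 6.67 and 6.57. Its log2 fold change was 0.84 ± 0.13 (limma, adjusted p = 0.032), positive under all 20 alternatives but called in 10. The call was lost with no filter (adjusted p = 0.067), TPM (0.10) or the 6 libraries alone (0.089), and without control library 2 (0.071) or 3 (0.057), LPS library 1 (0.21), 2 (0.21) or 3 (0.083), or LPS + G-CDs library 2 (0.18) or 3 (0.091). The other 12 were not called, and the median was -0.12.

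Related receptors outside the set were mostly silent. Of 32 other C-type lectin genes 6 were tested, and with LPS 3 were higher, 1 lower and 2 not called (median 0.26). Clec12a, 1 of those higher, is also counted in the inhibitory list, and Clec4a2, untested, is in both. Those lower numbered 3 with TPM and 2 with quantile normalization or without control library 1, and those higher numbered 5 with no filter, while the stricter filter left 1 higher and 0 lower. Clec12a, an inhibitory receptor for uric acid crystals, went from 6.72 ± 1.41 to 11.8 ± 0.445 FPKM (0.74, limma, adjusted p = 0.013), a call lost without LPS library 2 (0.052). Cd69, an early activation marker, was at 0 reads in every control library and averaged 1.52 FPKM with LPS, Clec2d averaged 0.108 and 1.26 FPKM, and Clec4a3, a relative of Clec4a2, averaged 1.53 ± 0.350 and 0.252 ± 0.0877. These 3 passed the filter only through the groups in which they are high, so their p-values are given from the fit of all genes with no filter, where limma called each (adjusted p = 1.1e-04 for Cd69, 0.015 for Clec2d and 0.0032 for Clec4a3). Of 14 other Fc receptor genes 13 were found and 3 tested, with 1 higher, 1 lower and 1 not called (median 0.24), and the stricter filter left 0 higher and 0 lower. Trim21, a cytosolic receptor for antibody on incoming virus, was higher (1.37, adjusted p = 2.5e-04), and Fcgrt, which recycles IgG, was lower (-0.57, adjusted p = 0.043), a call lost with the replicate block (0.062), no filter (0.10) or quantile normalization (0.059), and without control library 1 (0.12) or 3 (0.084), LPS library 1 (0.12), 2 (0.066) or 3 (0.14), or LPS + G-CDs library 2 (0.068). In both lists limma called 0 genes between LPS + G-CDs and LPS, also with voom, with 1 Fc receptor gene (Fcrl1, higher) at an unadjusted p under 0.05, and their medians there were -0.12 and 0.29.

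Other myeloid receptors that couple to ITAM chains split. Of 15 genes 8 were tested, and with LPS 4 were higher, 2 lower and 2 not called (median 0.39). Trem2, a Tyrobp-coupled receptor for lipids, fell from 33.2 ± 5.72 to 5.29 ± 0.381 FPKM (-2.43, limma, adjusted p = 1.7e-04), while Trem1, an amplifier of inflammation that uses the same adaptor, went from 0.221 ± 0.132 to 1.15 ± 0.0537 (adjusted p = 0.0054 in the fit with no filter, since it was under 1 FPKM in every control library). Cd300ld was higher (0.78, adjusted p = 0.038) and Cd300lb lower (-0.67, adjusted p = 0.0086). The call of Cd300ld was lost with no filter (adjusted p = 0.084), TPM (0.26) or quantile normalization (0.067), and without control library 1 (0.11) or 3 (0.093), LPS library 1 (0.11), 2 (0.094) or 3 (0.091), or LPS + G-CDs library 2 (0.060). The number called higher was 1 with TPM, with quantile normalization and without LPS library 1, 2 or 3, and 2 with no filter or without control library 1 or LPS + G-CDs library 2. Limma called 0 of the 8 with G-CDs, also with voom (median 0.04), and 1 had an unadjusted p under 0.05.

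Transcription factors known to act on these genes and the outputs of ITAM and LPS signaling made up the last lists. Of 10 factors, 6 were higher, 1 lower and 3 not called (median 1.10). Cebpd went from 5.05 ± 0.575 to 39.6 ± 5.42 FPKM (2.74, limma, adjusted p = 2.3e-05), Nfkb1 from 15.2 ± 3.04 to 93.9 ± 2.43 (2.57, adjusted p = 6.3e-06), Irf8 from 13.5 ± 0.757 to 56.9 ± 2.66 (2.001, adjusted p = 2.4e-06) and Stat3 from 9.06 ± 1.47 to 24.4 ± 0.744 (1.34, adjusted p = 7.6e-04). Spi1, the gene of PU.1, was not called (adjusted p = 0.52). Of 14 output genes 11 were tested, with 10 higher and 1 lower (median 4.28, or 5.59 with Csf2 and Il6, which had no read in control, set at their bound against 3 reads). Since 7 of the 11 were under 1 FPKM in every control library and passed the filter through the LPS groups, this count is a description. Cxcl2 went from 0.739 ± 0.254 to 1217 ± 132 FPKM and Ptgs2, the gene of cyclooxygenase-2, from 2.11 ± 0.510 to 1461 ± 119. Il1b, with 1 read in the control group, averaged 424 FPKM with LPS, and Csf2 averaged 145. In both lists limma called 0 genes between LPS + G-CDs and LPS, also with voom, with medians of 0.06 and -0.29. At an unadjusted p under 0.05, 2 factors were higher and 3 lower, and 5 output genes were lower, beside the same 7.19% and 8.04% of all tested genes. With the length trend removed 1 output gene was called lower, and without LPS + G-CDs library 1 there were 2.

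**Figure D5:**
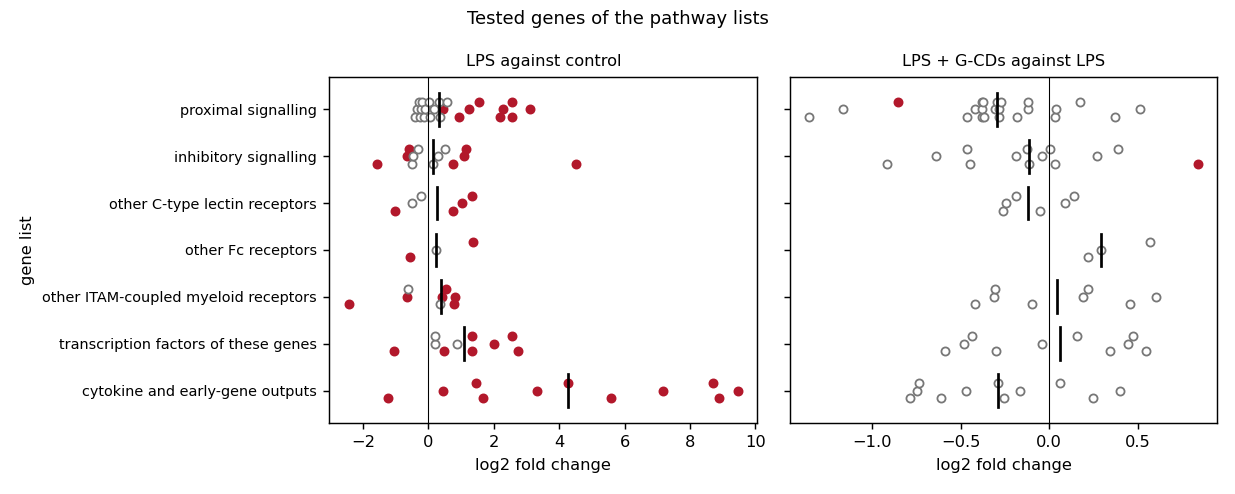
Log2 fold changes of the tested genes of the 7 lists, with a circle for each gene, filled where the adjusted p was under 0.05, and a bar at the list median. LPS moved genes of every list, and with G-CDs 2 circles are filled, Fgr in proximal signaling and Cd300a in inhibitory signaling.

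Profiles over the 9 libraries were matched by the Euclidean distance between centred log2(FPKM + 1) values, and the 2 nearest genes are named for each tested member. The correlations describe 9 points that share 3 groups and the depth of their libraries. Clec4e lay nearest to Lgals9, a galectin (distance 0.55, r = 0.994), and Fosl1, an AP-1 subunit (0.68, r = 0.995). Fcgr2b lay nearest to Pla2g5, a secreted phospholipase (0.28, r = 0.999), and Nfkb2, a subunit of NF-κB (0.33, r = 0.995). Fcer1g lay nearest to Dlgap4 (0.22, r = 0.991) and Anxa1, the gene of annexin A1 (0.34, r = 0.986). These 3 members shared a profile of low control and high LPS libraries with their matches. Clec4d lay nearest to Afp (0.33, r = 0.992) and Cdk2ap2 (0.64, r = 0.976), and Fcgr4 to the glucose transporter gene Slc2a1 (0.48, r = 0.966) and the scavenger receptor gene Cd36 (0.48, r = 0.965). Clec5a lay nearest to Kif2c (0.14, r = 0.986) and Mad2l1 (0.23, r = 0.962), both genes of mitosis. Fcgr1 lay nearest to 2610001J05Rik (0.15, r = 0.993) and Rpp40 (0.18, r = 0.977). In none of the 14 cases was the nearest gene another member.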

How the data were processed

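RNA from RAW264.7 cells was measured by RNA-seq in 9 libraries. Per the labels, mRNA was isolated with poly-T beads from TRIzol-extracted RNA, and the study's methods name an Illumina NovaSeq instrument. The authors deposited FPKM values per gene and library with gene coordinates and lengths. The submitters' processing notes name GRCm38 and mm10, and the aligner, counter and test are not given in the sources used here. Deposited coordinates equaled those of GENCODE release M21 for 53462 of 54409 shared genes.

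FPKM times gene length gave whole reads, within 0.05 reads, for 100% of values checked, which set the depth of 14752400 to 17312255 reads on genes. The library size behind FPKM was 1.11 to 1.14 times these reads in control, 0.929 to 0.936 in LPS and 0.88 to 0.98 in LPS + G-CDs. No 2 libraries were identical. The 11585 genes that reached 1 FPKM in at least 3 libraries entered limma 3.58.1 (R 4.3.3) as log2(FPKM + 1), in 1 model of the 3 groups with a mean-variance trend. Tests were two-sided, p-values were adjusted by Benjamini-Hochberg over all tested genes, and a call is an adjusted p under 0.05. Tables and figures used Python 3.11.15, pandas 2.3.3, numpy 2.4.6 and matplotlib 3.10.9. The fit was tested on simulated data.

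The members and gene lists were chosen with earlier results of these data known. In each list up to 4 genes with the largest changes among those called are named per comparison. Some genes that this rule or the clusters would name are not reported here. Syk, Card9, Tyrobp, Inpp5d, Spi1, Il6, Fcrl1 and the cluster neighbours were named after their values were seen. Neither the labels nor the study's text say what a replicate number stands for. Between control and LPS, libraries of equal number deviated together from their groups (r = 0.103, 0.137 and 0.113). Each r exceeds 0.1, the value set for pairing, so by that rule these numbers count as pairs. The margin is small and does not show that the libraries were paired. The p-values printed come from the fit without a block unless stated, and a fit with the number as a block was an alternative. Other alternatives were a pseudocount of 0.1, no filter, a mean of at least 5 FPKM, TPM, median-of-ratios and quantile scaling, 6 libraries alone, no trend, voom on the reads, the length trend removed and each library left out. Promoter sequences came from RefSeq (GRCm38.p6), and motifs were searched on both strands.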

Additional observations from a re-analysis of the deposited data

How the results depend on the processing

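Across 20 alternatives, the count of members called higher with LPS than control stayed between 4 and 5 and the count called lower at 1, and 0 members were called between LPS + G-CDs and LPS in any of them. The only count that changed by more than 1.5 times was that of members lower with LPS + G-CDs than control, which was 0 with the 6 libraries alone and between 0 and 1 when a library was left out. With the replicate block, 5 members were higher and 1 lower in both comparisons with control and 0 in the other, and between LPS and control of the genes named here the block lost the call of Fcgrt and made one of Inpp5d, lower (adjusted p = 0.033). Same-numbered libraries correlated at 0.095, 0.080 and 0.143 between LPS + G-CDs and LPS and at 0.280, 0.0575 and 0.653 between LPS + G-CDs and control, so the numbers pair neither, and there the block moved genes lower in proximal signaling from 1 to 2 and from 2 to 4. Uncalled values changed sign as follows, and the cause was not tested. With 1 library left out, Fcgr1 ranged from -0.42 to 0.060 (LPS against control, positive without control library 3) and from -0.14 to 0.34 (LPS + G-CDs against control, negative without control library 1 or LPS + G-CDs library 3), and in the latter it was -0.31 with TPM and -0.0978 with quantile normalization. Between LPS + G-CDs and LPS, Clec4e took -0.0857 with TPM and -0.0706 with quantile normalization. There, leaving out a library gave Fcgr4 between -0.25 and 0.073 (positive without LPS library 2 or LPS + G-CDs library 3) and Fcer1g between -0.27 and 0.088 (positive without LPS + G-CDs library 1 or 2). TPM moved the median of all genes to -0.23, -0.14 and -0.38 in the 3 comparisons. Of 840 list counts, 107 moved by over 1.5 times. Over all genes, LPS + G-CDs against LPS gave 29 higher and 28 lower, but 18 and 7 with a pseudocount of 0.1, 16 and 11 with TPM, 14 and 11 with the 6 libraries alone, 41 and 54 with the length trend removed, 106 and 150 without LPS + G-CDs library 1, 7 and 4 without library 2, and 12 and 17 without library 3. Without LPS library 1, 2 or 3 the counts were 8 and 6, 7 and 5, and 11 and 10. Without control library 1, 2 or 3 they were 32 and 31, 13 and 10, and 21 and 22. The stricter filter removed Fcgr4. Depth limits Clec4n, Clec7a, Fcgr3 and Fcgr4 in control, where counts were between 3 and 45 reads.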
